A study of Mus musculus with 16 samples.

Results

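The elastic fibre and microfibril genes are 10 rows of a table of read counts for 49568 gene symbols, picked by symbol: Eln, Fbn1, Fbn2, Fbln1, Fbln2, Fbln5, Efemp2, Emilin1, Mfap4 and Mfap5. The table came from RNA sequencing of single mouse flexor tendons in 16 libraries, 4 in each of 4 groups. The strains were C57BL/6J (C57) and MRL/MpJ (MRL), an inbred strain studied for its unusual wound repair, and all animals were adult males by the study's methods. Injured tendons had a partial cut through the deep digital flexor tendon of the third hind digit and were taken 7 days post-injury (dpi), and the others were uninjured. The labels carry no transgene, knockout or drug, and no batch or date, so strain and injury are the only factors they give. Tissue around the tendon and its sheath was left on the samples, so that the libraries hold a mixture of cells, and more cells of a type and more RNA per cell cannot be told apart. Injured libraries carry only a code as their label, which runs BI-181, then BI-183 through BI-185 for C57 and BI-270, BI-272, BI-274, then BI-275 for MRL. Their values are given in that label order, in which they are also numbered replicates 1 to 4, and those of uninjured libraries in the order of their replicate numbers.

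Elastic fibres give stretched tissue its recoil. They form when tropoelastin, the product of Eln, is laid down on a scaffold of microfibrils built from fibrillins and is cross-linked by lysyl oxidases, with fibulins, EMILIN-1 and microfibril-associated proteins (MFAPs) placed at the interface. In tendon, which consists mostly of collagen, the fibres run sparsely between the cells and in the tissue that surrounds the collagen bundles, and fibrillin microfibrils also hold latent TGF-β in the matrix.

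Levels are given as CPM, counts scaled to a common library total, with library sizes adjusted by trimmed means (TMM). A gene is said to have passed, risen or fallen where edgeR's quasi-likelihood test gave a Benjamini-Hochberg adjusted p below 0.05 over all genes tested together with a log2 fold change above 1 in size, the pair of criteria that the study's methods used within each strain. The libraries held between 12552424 and 23741648 counts, and the injured MRL libraries were the deepest group, with a median of 23460742.5 against 14560249.5 in injured C57. A floor of 3 counts corresponded to 0.126 to 0.239 CPM. Tenocyte markers (Scx, Mkx, Tnmd, Thbs4 and Fmod) were present in every group, with summed levels from 5085 to 19228 CPM over all libraries. The library labelled C57 uninjured replicate 4 stood apart: 6 epidermal markers took 5.59% of its counts and at most 0.061% in any other library, and its log2 CPM correlated with those of its group at 0.554 on average, against 0.781 to 0.808 for the other 3. In BI-181, 6 skeletal muscle markers took 4.05% of the counts (41141 CPM) and in BI-183 0.133% (1245 CPM), against at most 13.3 CPM in any other library.

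The promoter sequences on hand covered 6 of the 10 genes (RefSeq, GRCm38.p6). The 250 bases before the annotated start are shown for Fbln1, the member that fell after injury in C57, and for Efemp2, one of those that rose in MRL, since both passed in opposite directions. The table holds 2 windows for Fbln1 and 3 for Efemp2, from different annotated starts, and the one that begins farthest upstream is shown for each. Capitals mark GGGCGG, the core of the GC box, and CAGAC, the SMAD-binding letters, on either strand, so that some appear as their reverse complement.
Fbln1, chr15:85205699-85205948, plus strand: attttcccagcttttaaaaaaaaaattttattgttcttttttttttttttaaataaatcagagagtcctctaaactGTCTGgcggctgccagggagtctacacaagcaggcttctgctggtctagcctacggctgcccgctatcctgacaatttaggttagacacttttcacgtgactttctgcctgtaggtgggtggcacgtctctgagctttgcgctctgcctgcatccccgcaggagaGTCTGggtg
Efemp2, chr19:5473696-5473945, plus strand: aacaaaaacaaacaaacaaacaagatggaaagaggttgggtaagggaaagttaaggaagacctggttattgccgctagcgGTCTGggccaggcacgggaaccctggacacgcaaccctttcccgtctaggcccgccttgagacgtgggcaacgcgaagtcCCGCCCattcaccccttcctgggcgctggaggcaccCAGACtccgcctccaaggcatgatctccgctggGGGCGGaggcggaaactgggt
The Fbln1 window shown held 2 matches to the SMAD-binding letters and none to the GC box, and 46.4% of its bases were G or C. Its other window held 2 and 1, with 62.4% G or C. The Efemp2 window shown held 2 of each, with 59.2% G or C, and the other 2 windows of that gene held no SMAD-binding letters and 5 GC boxes each, with 75.6 and 78.8% G or C. Over all 32851 windows of this length in the table, 42.2% held the SMAD-binding letters and 32.7% the GC box, and the median share of G or C was 52.4%. TATAAA, the TATA box letters, stood in 12.4% and TGANTCA, the AP-1 letters, in 6.75% of all windows and in none of the 10 windows of the 6 members. Those 10 are not all separate or upstream of the gene: the windows of Fbln1 overlap, as do the last 2 of Efemp2, and in GENCODE M21 those of Fbn1, Fbln2 and Emilin1 lie within the first exon of an annotated transcript. The second window of Fbln5 and the last 2 of Efemp2 lie inside the annotated gene, and the second of Fbln1 runs past its start. These matches describe the letters and say nothing about which factors bind there. Eln, Fbn2, Mfap4 and Mfap5 had no entry.

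Uninjured tendon was dominated by fibulins. Levels of different genes were compared per kilobase of exon. The length used joins the exons of all annotated transcripts of a gene. It can exceed the length of the transcripts present, by an amount that differs between genes, so the ranks are approximate. On this scale Fbln1 stood first in uninjured C57 at 194 ± 13.4 CPM per kb (SD, n = 4) and in uninjured MRL at 392 ± 148. Fbln2 came next at 113 ± 60.7 and 135 ± 13.5, and in both strains the intervals of 1 SD around these means did not meet. The next place was held by Mfap5 in C57 (15.5 ± 8.42) and by Fbln5 in MRL (21.0 ± 7.05), and neither stood clear of the next genes by more than its SD. Eln ranked 8th in both uninjured groups at 3.00 ± 1.80 and 6.50 ± 3.83, Mfap4 followed at 1.13 ± 1.39 and 0.969 ± 0.428, and Fbn2 was last. After injury the order in C57 changed to Mfap5 (133 ± 47.4), Fbln2 (79.0 ± 21.8), Fbln1 (50.6 ± 16.6) and Eln (40.2 ± 41.7), and the intervals of 1 SD around each mean and the next overlapped throughout. In injured MRL, Fbln1 stayed first at 149 ± 94.5 and Fbln2 second at 76.3 ± 17.1, with overlapping SDs, and Efemp2 followed at 45.5 ± 14.6.

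**Figure D1:**
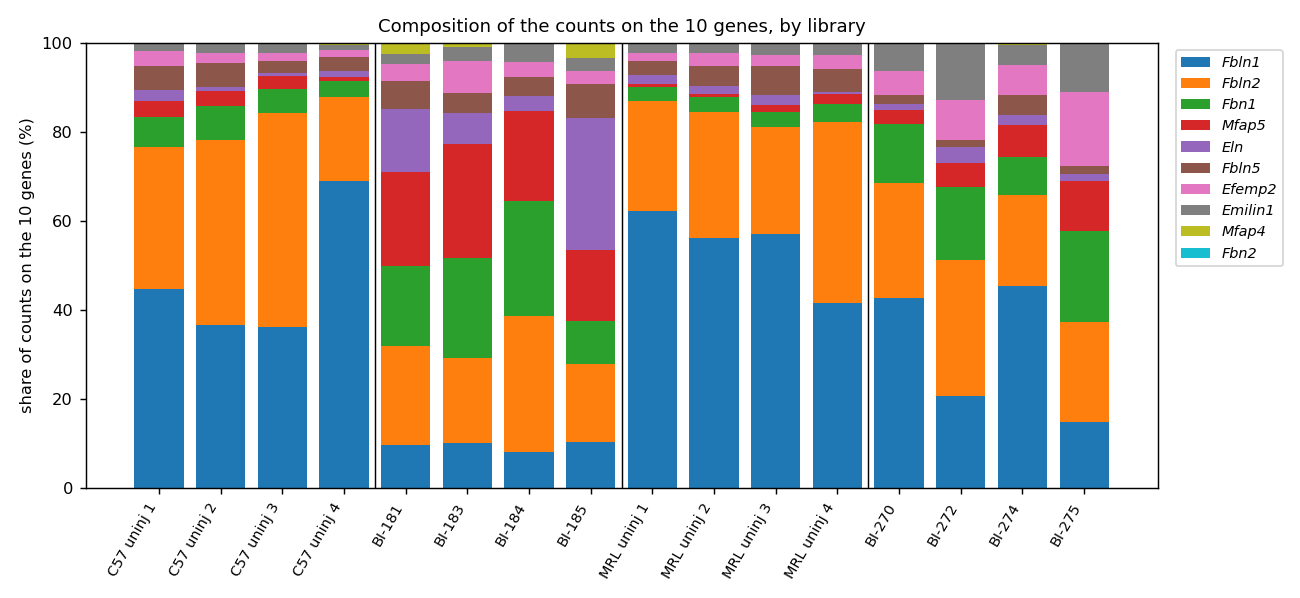
Each bar is 1 library and divides the raw counts on the 10 genes into the share of each gene (%), with vertical lines between the groups (C57 uninjured, C57 injured, MRL uninjured, MRL injured). Fbln1 and Fbln2 fill 76.6 to 87.9% of the bar in uninjured C57 and 27.9 to 38.5% in injured C57, and 81.1 to 86.9% and 37.2 to 68.4% in MRL.

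Together the 10 genes took 0.110 to 0.361% of a library's counts. Within that share the plot of composition by library shows the change. Fbln1 and Fbln2 held 76.6 to 87.9% of the counts on these genes in uninjured C57 and 27.9 to 38.5% at 7 dpi, and the libraries of the 2 groups did not overlap. In MRL the share went from 81.1 to 86.9% without injury to 37.2 to 68.4% with it, again without overlap. Eln held at most 2.35% in uninjured C57 and 3.46 to 29.8% in injured C57, while in MRL it held 0.379 to 2.13% and 1.24 to 3.55%. These shares count reads and favour long transcripts, so they compare libraries and not genes.

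**Figure D2:**
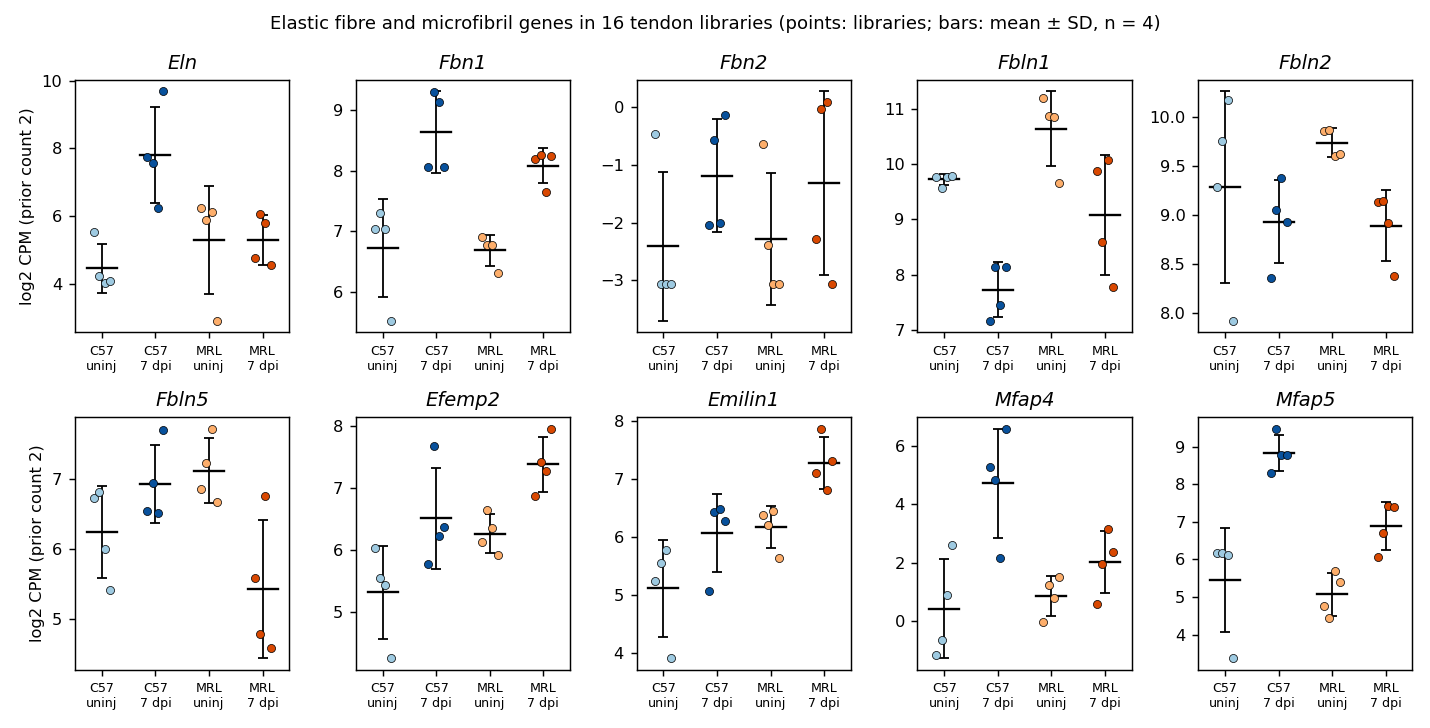
Each panel is 1 gene on its own vertical scale, log2 CPM with a prior count of 2, and each point is 1 library of the group named on the horizontal axis. Horizontal lines are means and bars are ± SD (n = 4), and the injured C57 points lie above all uninjured C57 points for Eln, Fbn1 and Mfap5 and below them for Fbln1.

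In C57 tendon, Mfap5 rose and Fbln1 fell after injury, and these 2 of the 9 members tested were the ones that passed. Over all genes, 155 of 14424, or 1.07%, passed in the same comparison. Fold changes were above 0 for 7 members, with a median log2 fold change of 1.20 over the 9 beside -0.05 over all genes tested. In MRL tendon 4 of 9 passed, all of them higher: Fbn1, Efemp2, Emilin1 and Mfap5. There 1057 of 14274 genes passed, 7.41%, and the member median was 1.12 beside -0.03 over all genes. Libraries of injured and uninjured tendon did not overlap for 4 members in C57 (3 higher, 1 lower) and for 5 in MRL (4 higher, 1 lower), which compares with 11.6% and 22.9% of all genes tested. Leaving out C57 uninjured replicate 4, MRL uninjured replicate 4 and BI-181 together gave 4 members in C57 (Fbn1, Fbln1, Mfap4 and Mfap5, with 5.97% of all genes passing) and 3 in MRL (Fbn1, Efemp2 and Mfap5, with 6.11%). MRL uninjured replicate 4 was on that list from an earlier look at these data. Its rank correlation over genes with the other 3 libraries of its group was 0.933 to 0.938, against 0.958 to 0.962 among those 3, while its mean correlation in log2 CPM, 0.897, lay within their 0.890 to 0.919. DESeq2 passed 5 members in C57, adding Eln, Fbn1 and Mfap4, where 5.49% of all genes passed, and 6 in MRL, adding Fbln1 and Fbln5, where 10.6% passed. Counts of list genes and of all genes in C57 therefore depended strongly on the libraries and on the tool.

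**Figure D3:**
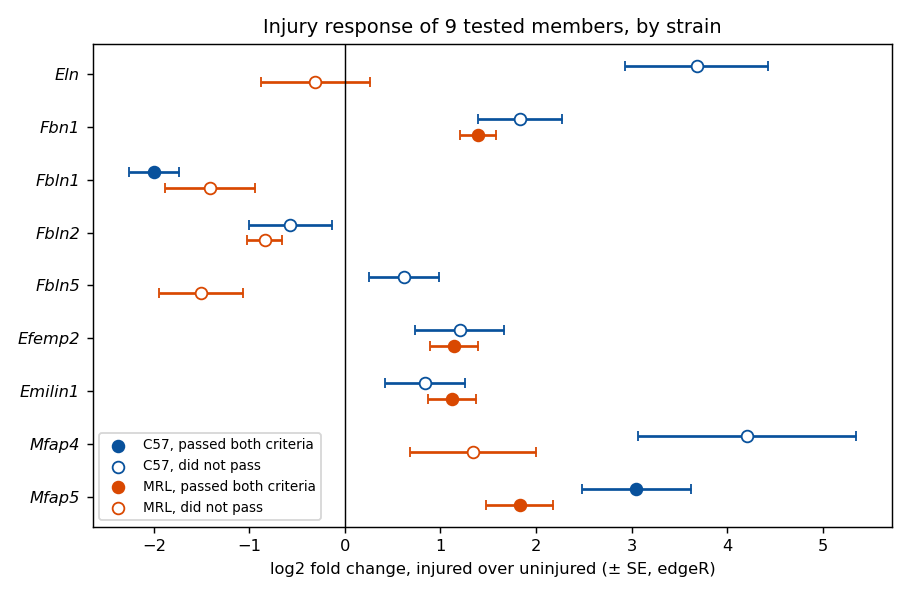
The horizontal axis is the log2 fold change of injured over uninjured tendon with its SE for the 9 members tested, in blue for C57 and orange for MRL. Filled points passed both criteria (Fbln1 and Mfap5 in C57; Fbn1, Efemp2, Emilin1 and Mfap5 in MRL), and Eln and Fbln5 are the members whose points fall on opposite sides of 0 in the 2 strains.

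Eln (ENSMUSG00000029675.12, chr5:134702593-134747323, minus strand) encodes tropoelastin, the precursor of the elastic core. In uninjured C57 its level was 46.1 CPM in replicate 1 and 18.5, 16.1 and 16.7 CPM in replicates 2 to 4. At 7 dpi it was 212 CPM in BI-181, 190 in BI-183, 75.5 in BI-184 and 824 in BI-185. All injured C57 libraries lay above all uninjured ones, yet the injured ones spread widely, with BI-185 far above the rest. The log2 fold change was 3.68 (SE 0.75), and the adjusted p of 0.0568 in edgeR did not pass; without BI-185 the log2 fold change was 2.70. In MRL the levels were 75.9, 58.5, 68.9 and 7.34 CPM without injury and 27.0, 66.2, 55.1 and 23.3 CPM in label order. The MRL groups overlapped in full, with a log2 fold change of -0.31 (SE 0.57, adjusted p = 0.764).

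Smooth muscle and pericyte markers moved with Eln in part of the libraries. Without Des, which skeletal muscle also makes and which reached 2793 CPM in BI-181, the other 5 markers on that list (Acta2, Myh11, Cnn1, Tagln and Rgs5) summed to 1370 CPM in BI-181, 420 in BI-183, 244 in BI-184 and 1002 in BI-185. In uninjured C57 they summed to 597 CPM in replicate 1, the library with the highest Eln of its group, and to 57.6 to 214 in the others. In MRL they summed to 65.8 to 210 CPM without injury and 43.1 to 111 CPM with it. There the highest Eln did not go with the highest sum: uninjured replicate 1 (Eln 75.9 CPM) had the lowest sum of its group, 65.8 CPM. BI-272, with the highest Eln of the injured MRL libraries (66.2 CPM), had a sum of 61.4 CPM. The sum without Des was chosen after its values were seen. Myh11, the smooth muscle myosin, had 0 counts in BI-270, BI-275 and C57 uninjured replicate 4. Endothelial markers, the other cell type of vessels, summed to 15.7 to 70.9 CPM in uninjured and 81.5 to 130 CPM in injured C57, and to at most 54.1 CPM in any MRL library. Adipocyte markers (Adipoq, Plin1, Cidec, Lep and Fabp4) summed to 137, 104, 15 and 120 CPM in injured C57 in label order. They were lowest in BI-184 as Eln was, but highest in BI-181, where Eln was not. In uninjured C57 they summed to 52.2 CPM in replicate 1 against 10.1 to 12.5 CPM in the rest of that group. In MRL they summed to at most 43.7 CPM without injury and 59.3 CPM with it. Fibroblast markers (Pdgfra, Pi16, Dpp4, Dpt and Col15a1) summed to 514, 784, 600 and 847 CPM in injured C57 in label order, and to 180 to 320 CPM in uninjured C57. Among the injured C57 libraries they were highest in BI-185 as Eln was, but lowest in BI-181, where Eln was not. In MRL they summed to 362 to 578 CPM without injury and 331 to 439 CPM with it. The part of all these cells in the Eln levels was not tested.

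**Figure D4:**
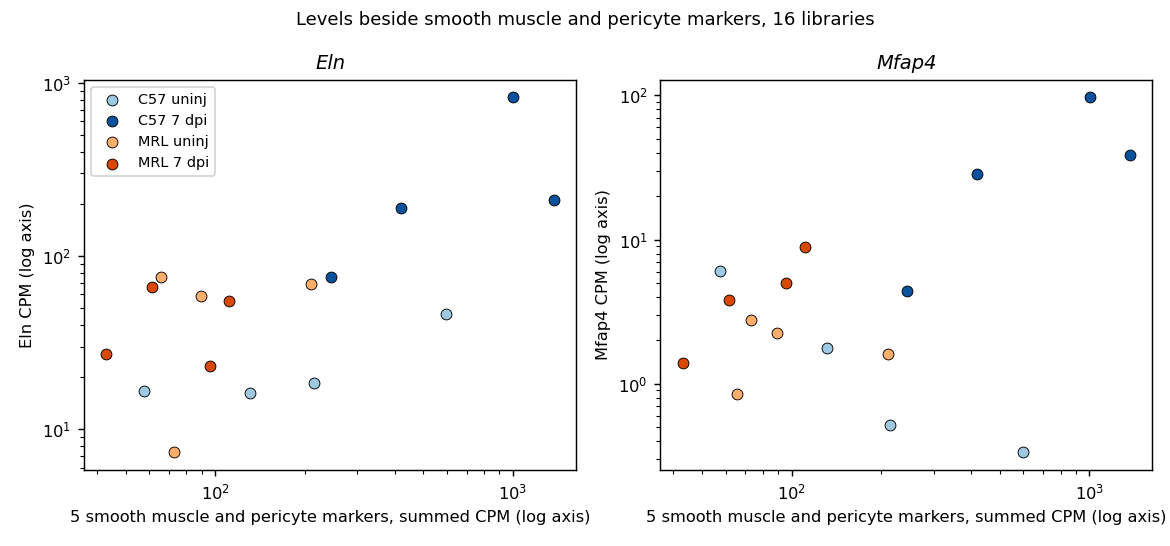
Each point is 1 of 16 libraries, with the summed CPM of 5 smooth muscle and pericyte markers on a log horizontal axis and the CPM of Eln (left) or Mfap4 (right) on a log vertical axis, coloured by group. The injured C57 libraries BI-181, BI-183 and BI-185 (420 to 1370 CPM) have the highest Eln and Mfap4, while uninjured C57 replicate 1, at 597 CPM, has the lowest Mfap4.

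Fbn1 (ENSMUSG00000027204.13, chr2:125300594-125507993, minus strand) encodes fibrillin-1, the main building block of microfibrils. Its level was 131, 158, 131 and 45.8 CPM in uninjured C57 and 267, 630, 564 and 266 CPM in label order. In MRL it was 119, 109, 109 and 79.5 CPM without injury and 291, 306, 200 and 304 CPM in label order. Both strains had every injured library above every uninjured one. The rise passed in MRL at a log2 fold change of 1.39 (SE 0.19, adjusted p = 0.00250 by edgeR) and kept an adjusted p of at most 0.0270 under all 15 alternative fits. In C57 the log2 fold change was larger and less precise, 1.83 (SE 0.44), with an adjusted p of 0.0866 that passed once C57 uninjured replicate 4, its lowest library, was left out, at a log2 fold change of 1.57. Of the exonic bases of Fbn1, 20.14% are shared with Gm9913 on the other strand, which held at most 24 counts in any library. Fbn2 (ENSMUSG00000024598.9), the fibrillin of developing tissue, was at or near the floor, with 0 to 21 counts per library and at most 0.946 CPM. The low-count filter removed it from both injury comparisons in edgeR, and between the injured strains it did not pass (log2 difference 0.23, SE 1.2, adjusted p = 0.936).

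The fibulins are glycoproteins that bridge elastin, microfibrils and basement membranes. Fbln1 (ENSMUSG00000006369.14, chr15:85205949-85286535, plus strand), whose promoter is shown above, was tightly set in uninjured C57 at 873, 759, 869 and 884 CPM. At 7 dpi it was 143, 283, 175 and 282 CPM in label order. Every injured C57 library was thus well below every uninjured one, and C57 uninjured replicate 4 was level with the others for this gene. Fbln1 fell by 2.00 on the log2 scale (SE 0.26, adjusted p = 0.0148 by edgeR), a 3.99-fold change. The call stood without BI-181 or without C57 uninjured replicate 4 and was lost when any 1 of the other 6 libraries was dropped, with adjusted p up to 0.0627, while the log2 fold change stayed between -2.10 and -1.80. In MRL, Fbln1 was 2340, 1859, 1840 and 803 CPM without injury and 932, 386, 1070 and 219 CPM in label order. The MRL groups overlapped through uninjured replicate 4, and the log2 fold change of -1.41 (SE 0.47, adjusted p = 0.0812) did not pass.

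Fbln2 (ENSMUSG00000064080.12, chr6:91212455-91272540, plus strand) encodes fibulin-2, which binds elastin and basement membrane proteins. It was 627, 865, 1156 and 242 CPM in uninjured C57 and 328, 531, 666 and 489 CPM in the injured libraries in label order. The 2 C57 groups overlapped, with a log2 fold change of -0.57 (SE 0.43, adjusted p = 0.566). In MRL it was 931, 937, 780 and 790 CPM without injury and 561, 566, 485 and 332 CPM with it. Every injured MRL library was below every uninjured one, and the adjusted p of 0.0179 was under the threshold, but the log2 fold change of -0.84 (SE 0.18) was smaller than 1, so it was not called.

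Fbln5 (ENSMUSG00000021186.9, chr12:101746565-101819055, minus strand) encodes fibulin-5, which brings tropoelastin to the microfibril. Its levels were 107, 113, 64.0 and 42.7 CPM in uninjured C57 and 93.0, 124, 91.7 and 210 CPM in injured C57. In MRL they were 116, 150, 212 and 103 CPM without injury and 47.9, 27.4, 108 and 23.8 CPM with it. The C57 groups overlapped, and in MRL only BI-274 reached the uninjured range. The log2 fold change was 0.62 (SE 0.37, adjusted p = 0.463) in C57 and -1.51 (SE 0.44, adjusted p = 0.0516) in MRL, and neither passed. Without BI-274 the MRL change was -2.14 and passed.

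Efemp2 (ENSMUSG00000024909.15, chr19:5473954-5482517, plus strand) encodes fibulin-4, which couples lysyl oxidase to tropoelastin. In C57 it was 65.2, 46.6, 43.0 and 18.9 CPM without injury and 54.4, 204, 74.8 and 82.4 CPM with it. In MRL it was 69.9, 100.0, 81.5 and 60.3 CPM without injury and 117, 170, 155 and 248 CPM with it. The MRL groups did not overlap, and in C57 BI-181 fell inside the uninjured range. The log2 fold change was 1.14 (SE 0.25, adjusted p = 0.0175) in MRL, which passed, and 1.20 (SE 0.47, adjusted p = 0.277) in C57, which did not. The MRL call was lost without BI-275 (log2 fold change 0.89), without MRL uninjured replicate 1 (1.09) and in a joint fit over all 16 libraries (1.13, adjusted p = 0.0996). Of its exonic bases 4.57% are shared with Mus81 on the other strand, which reached 582 counts.

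Emilin1 (ENSMUSG00000029163.9, chr5:30913402-30921277, plus strand) encodes EMILIN-1, a glycoprotein at the interface of elastin and microfibrils that also restrains the processing of TGF-β. In C57 it was 37.4, 46.4, 54.2 and 14.8 CPM without injury and 33.2, 85.6, 89.0 and 77.2 CPM with it. In MRL it was 82.4, 73.1, 87.2 and 49.7 CPM without injury and 137, 233, 111 and 159 CPM with it. BI-181, the library with the most skeletal muscle transcripts, was the 1 injured C57 library inside the uninjured range, and the MRL groups did not overlap. The MRL change passed at a log2 fold change of 1.12 (SE 0.25, adjusted p = 0.0196) and was lost without BI-272 (0.89), MRL uninjured replicate 2 (1.12) or MRL uninjured replicate 4 (0.99) and in the joint fit (1.12, adjusted p = 0.0796). In C57 the log2 fold change was 0.84 (SE 0.42, adjusted p = 0.376). Over the 16 libraries Efemp2 and Emilin1 were the 2 members with the most similar pattern, with a root mean square difference of 0.469 between their log2 CPM after each gene's mean was subtracted, and Mfap4 and Fbln1 were the least similar at 3.00.

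Mfap4 (ENSMUSG00000042436.12, chr11:61485431-61488900, plus strand) encodes a fibrinogen-domain protein that binds elastin and fibrillin. It was 0.334, 0.516, 1.76 and 6.05 CPM in uninjured C57, on 5 to 93 counts, and 38.7, 28.4, 4.38 and 96.7 CPM in label order. The injured C57 libraries had the same order as for Eln, and BI-184 fell below C57 uninjured replicate 4. The part of smooth muscle cells and pericytes in this order was not tested. Of the exonic bases of Mfap4, 4.63% are shared with Mapk7 on the other strand, which reached 667 counts, and without the strand setting such reads cannot be told apart in libraries where Mfap4 is low. The log2 fold change of 4.21 (SE 1.14, adjusted p = 0.133) did not pass, while without BI-185 it was 3.42, and without C57 uninjured replicate 4 it was 5.56 and passed. In MRL, Mfap4 was 0.853, 2.23, 1.60 and 2.76 CPM without injury and 1.40, 3.80, 8.83 and 5.03 CPM with it. Those groups overlapped, with a log2 fold change of 1.34 (SE 0.66, adjusted p = 0.212).

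Mfap5 (ENSMUSG00000030116.14, chr6:122505845-122529290, plus strand) encodes MAGP-2, a small protein that decorates fibrillin microfibrils. It was 71.4, 71.7, 68.8 and 10.2 CPM in uninjured C57 and 314, 716, 441 and 437 CPM in label order. In MRL it was 27.1, 21.7, 51.1 and 42.1 CPM without injury and 67.2, 104, 170 and 168 CPM in label order. Mfap5 was the 1 member that passed in both strains, and in both the groups were apart. Its log2 fold change was 3.05 (SE 0.57, adjusted p = 0.0467) in C57, or 8.28-fold, and 1.83 (SE 0.35, adjusted p = 0.00981) in MRL, or 3.56-fold. The C57 call stood without C57 uninjured replicate 4 (log2 fold change 2.70, adjusted p = 0.00161) and was lost in the 7 fits that left out any other library, with adjusted p up to 0.146 and log2 fold changes of at least 2.83. The MRL call kept an adjusted p of at most 0.0389 under all 15 alternative fits. Markers of fibroblasts outside the tendon bundle (Pdgfra, Pi16, Dpp4, Dpt and Col15a1) summed to 180 to 320 CPM in uninjured and 514 to 847 CPM in injured C57, and to 362 to 578 and 331 to 439 CPM in MRL. Their part in the level of Mfap5 was not tested.

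Without injury, the strains were compared as MRL over C57. None of the 9 members tested passed, and 0 of 14055 genes, or 0%, passed in edgeR, while 1106 genes and 4 members had an unadjusted p below 0.05. DESeq2 passed 0.66% of all genes and again no member. The 3 smallest p-values belonged to Fbln1, Emilin1 and Efemp2, with log2 differences of 0.99 (SE 0.30), 0.93 (SE 0.36) and 0.83 (SE 0.33), each at an adjusted p of 0.621. No member was apart between the strains in all libraries, where 5.02% of all genes were. For Fbln1, 3 MRL libraries, at 1840 CPM or more, were above the highest C57 library at 884 CPM, and MRL uninjured replicate 4 at 803 CPM was not. Leaving out the 3 libraries named above passed 2 members, Fbln1 higher and Mfap5 lower in MRL, with 3.48% of all genes.

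At 7 dpi, Mfap5 was lower in MRL than in C57 and was the 1 member of 10 that passed, beside 3.43% of all genes. Its highest injured MRL library, 170 CPM, was below its lowest injured C57 library, 314 CPM. The log2 difference was -1.93 (SE 0.35, adjusted p = 0.0151), or 3.82-fold, and without BI-272 the adjusted p was 0.0645. Libraries of the strains did not overlap for 3 members, Emilin1 higher and Eln and Mfap5 lower in MRL, beside 16.1% of all genes. Some further members, named after their values were seen, missed the threshold: Eln with a log2 difference of -2.96 (SE 0.71, adjusted p = 0.0519), Mfap4 with -3.18 (SE 0.84, adjusted p = 0.0704) and Emilin1 with 1.14 (SE 0.32, adjusted p = 0.0828). Without BI-185 the differences were -1.94 for Eln and -2.37 for Mfap4, and without BI-184 both passed, at -3.29 and -3.55. DESeq2 passed 6 of 10, Eln, Fbln5, Mfap4 and Mfap5 lower and Fbln1 and Emilin1 higher in MRL, with 8.15% of all genes, and leaving out BI-181 passed Mfap5 alone, with 2.39%. Of the markers, 2 of 6 for smooth muscle and pericytes, 2 of 5 for macrophages and 1 of 5 for endothelium also passed as lower in MRL. Tenocyte markers went the other way, with 1 of 5 passing as higher in MRL, a median log2 difference of 0.85 and summed levels of 12800 to 19228 CPM in MRL against 6891 to 10194 CPM in C57. None of the 5 fibroblast markers passed (median log2 difference -0.93), and the injured MRL libraries were deeper than the C57 ones. These differences stand beside the members' differences, and their part was not tested.

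Whether the injury response itself differed between strains was tested as an interaction over all 16 libraries. For the interaction a gene passed on an adjusted p below 0.05 alone, without the fold criterion. No member passed, and neither did any of the 15947 genes (0%), although 1939 genes and 3 members had an unadjusted p below 0.05. Those members were Eln at -4.05 on the log2 scale (SE 1.06, adjusted p = 0.333 by edgeR), Fbln5 at -2.18 (SE 0.63, adjusted p = 0.333) and Mfap4 at -2.93 (SE 1.25, adjusted p = 0.379), each response being lower in MRL than in C57. Without BI-185 the Eln and Mfap4 values were -3.02 and -2.12, without C57 uninjured replicate 4 that of Mfap4 was -4.26, and without BI-274 that of Fbln5 was -2.81, none of which passed. DESeq2 passed Eln (adjusted p = 0.00547) and Fbln5 (adjusted p = 0.0490) among 1.36% of all genes, and edgeR without the 3 libraries passed 0% of them. A response that passed in 1 strain alone, as for Efemp2 and Emilin1 in MRL, was therefore not shown to differ between the strains: the interaction was -0.12 (SE 0.56) for Efemp2 and 0.22 (SE 0.52) for Emilin1.

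**Figure D5:**
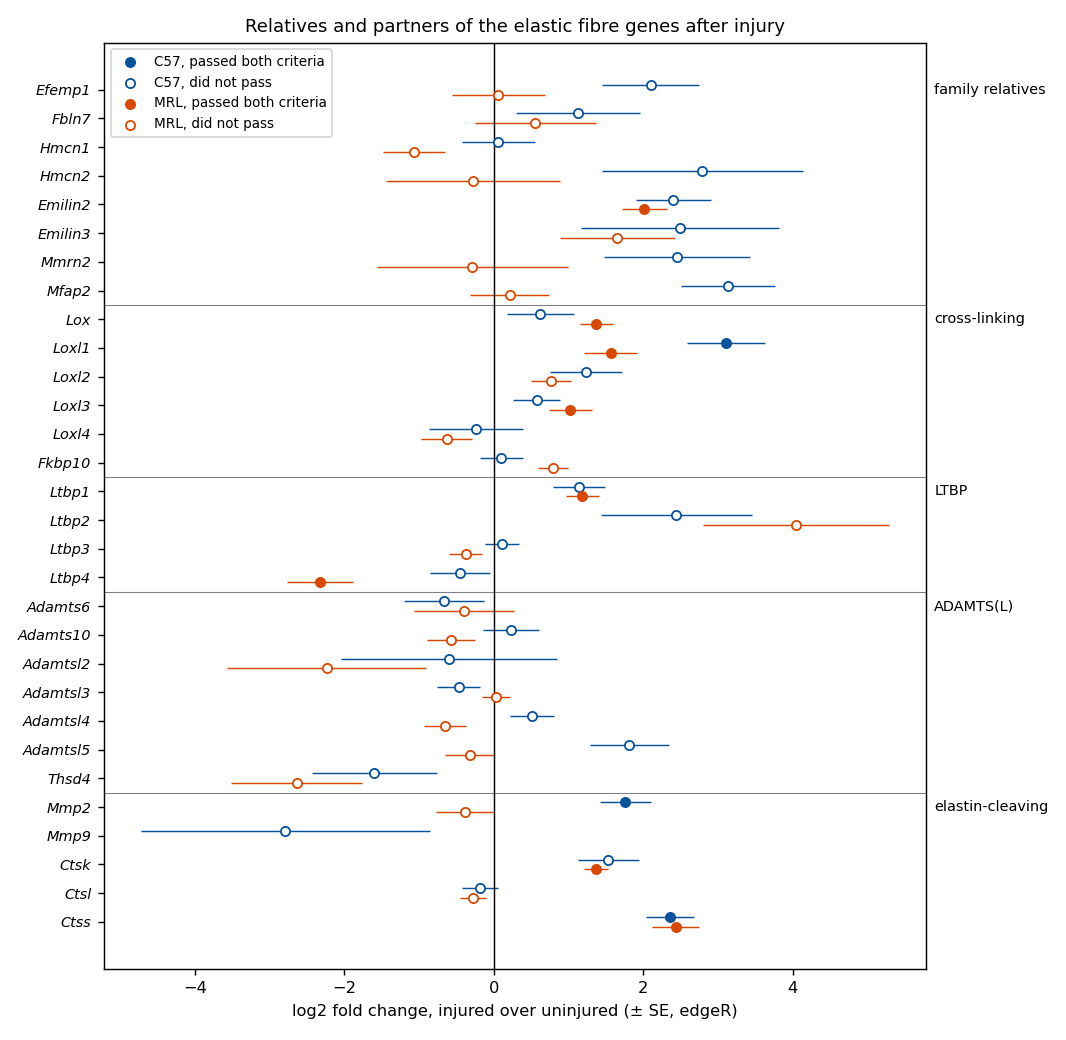
The horizontal axis is the log2 fold change of injured over uninjured tendon with its SE for 30 relatives and partners, in blue for C57 and orange for MRL, with lines between the 5 lists. Filled points passed both criteria, among them Loxl1 and Ctss in both strains, and Mmp12 and Mmrn1 are left out since their uninjured libraries held at most 1 count.

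The enzymes that cross-link elastin and collagen rose in part. Of 6 cross-linking and chaperone genes, 1 passed in C57 and 3 in MRL, all of them higher, beside 1.07% and 7.41% of all genes tested. Loxl1, a lysyl oxidase that acts on elastin, passed in both, from 4.55 to 24.2 CPM in uninjured C57 to 75.1 to 212 CPM at 7 dpi (log2 fold change 3.10, adjusted p = 0.0365) and from 5.10 to 19.8 CPM to 31.5 to 43.9 CPM in MRL (1.56, adjusted p = 0.0220). The C57 call was lost when any library other than C57 uninjured replicate 4 was left out. After injury Loxl1 was lower in MRL than in C57 by 1.80 on the log2 scale (adjusted p = 0.0136). Lox, the founding lysyl oxidase, passed in MRL (1.37, adjusted p = 0.00461), as did Loxl3 (1.02, adjusted p = 0.0469), and without BI-272, without MRL uninjured replicate 1 or in the joint fit over 16 libraries the MRL count was 1.

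Among 9 relatives of the members, 1 of 9 tested passed in C57 and 1 of 8 in MRL, and the same 1.07% and 7.41% of all genes stand beside these counts and those of the next 2 lists. In C57 it was Mmrn1, the platelet and endothelial multimerin, at 0 counts in every uninjured library and 26 to 92 counts at 7 dpi. That is at least 17.3-fold higher against a floor of 3 counts per library. Mmrn1 was at 0 in all MRL libraries, at least 25.2-fold lower than in C57 after injury. In C57, 4 relatives passed without C57 uninjured replicate 4 but 0 without any other 1 library. The C57 count was 4 with DESeq2 (Efemp1, Emilin2, Mmrn1 and Mfap2) and 4 without the 3 libraries that stood apart. It was 3 in the joint fit over 16 libraries and 0 with upper-quartile factors. Mfap2 had a log2 fold change of 3.13 in C57 (edgeR adjusted p = 0.0556), with its groups apart, and of 0.21 in MRL (adjusted p = 0.834). Emilin2, a second EMILIN, passed in MRL, from 11.4 to 29.3 CPM to 48.0 to 95.5 CPM (log2 fold change 2.01, adjusted p = 0.00386). In C57 its log2 fold change was 2.40 (edgeR adjusted p = 0.0607), from 5.2 to 32.8 CPM to 69.8 to 152 CPM, with the groups apart. Its interaction was -0.44 (SE 0.60) and did not pass. The MRL count of relatives was 2 without BI-274. Efemp1, or fibulin-3, was lower in MRL than in C57 after injury by 2.59 on the log2 scale (adjusted p = 0.0498). Of 4 latent TGF-β binding proteins, which tether the growth factor to microfibrils, none passed in C57 in edgeR, where Ltbp1 came closest (1.14, adjusted p = 0.174). The C57 count was 1 with DESeq2 (Ltbp1, adjusted p = 0.0404), 1 without C57 uninjured replicate 4 and 2 without the 3 libraries that stood apart. In MRL, Ltbp1 rose (1.18, adjusted p = 0.00913) and Ltbp4, a partner of fibulin-4 and fibulin-5, fell, from 337 to 500 CPM without injury to 30.8 to 165 CPM with it (-2.33, adjusted p = 0.00922). The largest log2 fold changes of the 4 were those of Ltbp2, 2.44 in C57 (adjusted p = 0.303) and 4.04 in MRL (adjusted p = 0.0696). Its injured and uninjured libraries were apart in both strains, but it did not pass in edgeR. The MRL count was 3 with DESeq2, which added Ltbp2 (adjusted p = 0.00997), 3 without MRL uninjured replicate 4 and 1 with no filter. None of the 7 fibrillin-associated ADAMTS and ADAMTS-like genes tested passed after injury in edgeR, the nearest being Adamtsl5 in C57 (1.81, adjusted p = 0.163) and Thsd4 in MRL (-2.64, adjusted p = 0.0814), and Adamtsl5 was lower in injured MRL than in injured C57 by 1.82 (adjusted p = 0.0125). DESeq2 passed 1 of them in each strain, Adamtsl5 in C57 (adjusted p = 0.014) and Thsd4 in MRL (adjusted p = 0.00928). The edgeR count was also 1 in C57 without C57 uninjured replicate 4, without the 3 libraries that stood apart or in the joint fit over 16 libraries, and 1 in MRL without BI-272 or without BI-275.

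Enzymes able to cleave elastin rose in both strains, 3 of 6 tested in C57 and 3 of 5 in MRL, with none falling past the criteria, beside 1.07% and 7.41% of all genes. Macrophage markers passed as higher for 4 of 5 in C57 and 2 of 5 in MRL, with summed levels of 180 to 377 CPM without injury and 760 to 1266 CPM with it in C57, and of 206 to 345 and 394 to 825 CPM in MRL. Their part in the protease levels was not tested. Cathepsin S (Ctss), a macrophage protease, went from 63.3 to 154 CPM to 425 to 792 CPM in C57 (log2 fold change 2.36, adjusted p = 0.0163) and from 75.5 to 115 CPM to 282 to 826 CPM in MRL (2.43, adjusted p = 0.00209). Mmp12, the macrophage elastase, was at 0 counts in uninjured C57 and at 66 to 711 counts at 7 dpi, at least 122-fold higher (adjusted p = 0.0279). In C57 the count of 3 went to 0 or 1 when BI-183, BI-184, BI-185 or any 1 of C57 uninjured replicates 1 to 3 was dropped. In MRL, Mmp12 went from at most 1 count to 768 to 11432 counts (adjusted p = 0.00375). Mmp2 passed in C57 (1.76, adjusted p = 0.0484) and Ctsk, a collagen- and elastin-cleaving cathepsin, in MRL (1.36, adjusted p = 0.00130). In C57 the log2 fold change of Ctsk was 1.53 (edgeR adjusted p = 0.127, DESeq2 adjusted p = 0.0073), with every injured library above every uninjured one. In MRL that of Mmp2 was -0.39 (edgeR adjusted p = 0.538). Without injury Mmp2 was at 127 to 155 CPM in C57 and 142 to 595 CPM in MRL. The interaction was -0.23 (SE 0.45) for Ctsk and -2.21 (SE 0.55) for Mmp2. Neither passed in edgeR, and DESeq2 passed Mmp2 (adjusted p = 0.0158). Mmp7 and the neutrophil enzymes Elane, Prtn3 and Ctsg were filtered out in every comparison. These lists, like the members, were chosen with earlier results of these data known.

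The genes whose pattern over the 16 libraries came nearest to that of Eln, among 11144 with a mean level of at least 5 CPM, were Serpina3c, Spon1, Scara5, Engase and Lrrc17, at root mean square differences of 0.937 to 1.04 in log2 CPM. Scara5, for example, averaged 20.4 CPM in uninjured and 143 CPM in injured C57, and 29.4 and 22.0 CPM in MRL. Nearest to the mean pattern of the members were Fyn, Tmem198b, Ctsb, Hexa and Grn, at 0.263 to 0.328. That mean left out Fbn2, whose level was below 5 CPM. Averaging members that moved in opposite directions flattens the pattern, so these smaller differences cannot be set against those for Eln. Ctsb, the lysosomal cathepsin B, averaged 1050.0 and 2143 CPM in C57 and 1251 and 1713 CPM in MRL. These likenesses describe the same libraries and carry no test.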

How the data were processed

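RNA was sequenced from 16 single tendons in 4 groups of 4. Per the methods and the submitters' processing notes, 100-base single-end reads were trimmed (Trimmomatic 0.36), aligned to GRCm38.p5 (STAR 2.5.2b) and counted per gene (featureCounts, Subread 1.5.0p3), and the authors used DESeq2 1.14.1. The deposited table holds these raw counts, not normalized. The strand setting and annotation are not given in the sources used here, so reads of genes that overlap on opposite strands may not be separable. The labels and the methods name different library kits. The study pre-amplified its RNA by the methods, and counts without molecular identifiers are not independent molecules, so the floor covers counting error only. The methods state 4 animals per group, and each library was made from a single tendon.

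Counts were tested with edgeR 4.0.16 (limma 3.58.1, R 4.3.3) as robust quasi-likelihood fits on TMM factors and filterByExpr, in 8 libraries per comparison and in 16 for the interaction. DESeq2 1.42.0, other factors, filters and a joint fit, and the loss of each library, were alternatives. Every member was named in the injury comparisons; elsewhere those that passed, or else the 3 with the smallest p, were named, with up to 4 passing genes per list (or the nearest gene) and the 5 nearest patterns. The members and lists were chosen with earlier results of these data known. On data simulated for the C57 injury comparison with 13867 genes tested, 66 of 100 8-fold and 1 of 100 2-fold changes were recovered, and for MRL, with 13761, 88 and 25. Gene positions and exon lengths came from GENCODE M21, in which all 47 member and list symbols matched 1 gene. As a check for libraries deposited more than once, pairs within each group were compared, and the lowest chi-square per degree of freedom was 22.6.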

Additional observations from a re-analysis of the deposited data

Results flagged for a closer look

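Within the groups of 4 libraries, 8 of the 40 combinations of member and group held a library far from the others by Dixon's test at the 95% level, where chance flags about 1 in 20. C57 uninjured replicate 4, the library with epidermal transcripts, was low for Fbn1 (45.8 CPM against 131 to 158) and for Mfap5 (10.2 CPM against 68.8 to 71.7), though not for Fbln1, where replicate 2 was the low one (759 CPM against 869 to 884). Replicate 1 of the same group was high for Eln (46.1 CPM against 16.1 to 18.5) and for Fbn2 (0.600 CPM on 9 counts, against 0). With the other libraries of that group all at 0 counts of Fbn2, any value above 0 would have been flagged. That flag, 1 of the 8, therefore carries no information. BI-181, the library with the most skeletal muscle transcripts, was low for Emilin1 (33.2 CPM against 77.2 to 89.0). In MRL, uninjured replicate 4 was low for Eln (7.34 CPM against 58.5 to 75.9) and BI-274 was low for Fbn1 (200.0 CPM against 291 to 306).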

How the results depend on the processing

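Of 463 alternative values of named log2 fold changes, 410 kept their direction and their side of the threshold, 24 kept the direction and no longer passed, 29 passed where they had not, and 0 reversed. In C57 after injury, 2 members and 155 genes passed; the counts were 4 and 269 with at least 10 counts in every library, 5 and 909 with DESeq2, 5 and 367 in one fit over 16 libraries, and 4 and 867 without the 3 libraries that stood apart, while 1 member passed with no filter and 1 with upper-quartile factors. Leaving out 1 library gave 0 to 4 members and 10 to 750 genes, the highest without C57 uninjured replicate 4. In MRL after injury, 1808 genes passed with DESeq2 and 2 members in the fit over 16 libraries (Fbn1 and Mfap5), and leaving out 1 library gave 3 to 5 members and 689 to 1260 genes. Between uninjured strains, 103 genes passed with DESeq2, 497 genes and 2 members without the 3 libraries, 1 gene with the 10-count filter and 1 with no filter, and 0 to 3 with 1 library left out, the most without MRL uninjured replicate 4. Between injured strains, DESeq2 passed 6 members and 1473 genes, total counts passed 2 members, and leaving out 1 library gave 0 to 3 members and 231 to 481 genes, the fewest members without BI-272 and the fewest genes without BI-185. For the interaction, on the adjusted p alone, DESeq2 passed 2 members and 221 genes, and leaving out 1 library passed 0. The cause of these differences was not tested. With the replicate number as a block, 0 members and 0 genes passed between uninjured strains and Fbln1 differed by 0.91; same-numbered libraries correlated at -0.24 to -0.03, so the numbers do not pair the tendons. Labels of injured libraries carry no replicate number, and those used here only follow accession order, so no paired fit was made with them. Simulated 2-fold changes, which lie at the fold criterion itself, were mostly not called, and Fbn2 held at most 21 counts in any library.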
